A study of Mus musculus with 18 samples.

Results

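RNA polymerase II (RNA Pol II) occupancy was compared with background precipitation in ventricles of adult mice, over the 6 RNA Pol II libraries and the 3 IgG libraries of the deposited table. All union peaks on chromosomes 1 to 19 were taken, 99188 of the 101256 regions of the table, and the 2068 peaks on X or Y were left out. A union peak is a region from the merged peak calls of all libraries, those for the DNA-binding protein CTCF included, so a peak need not hold RNA Pol II. The peaks had a median length of 417 nt, from 95 to 32955 nt. Promoter annotation covers 5000 nt on either side of the transcription start site (TSS) of the nearest gene. The centre of a peak can lie further away, at 6536 nt for the main *Myl2* peak. Protein-coding genes were named at 25869 peaks and other genes at 11581 peaks, and 61738 peaks had no promoter annotation. The genotypes were WT, *Trdn-as* KO and *Mettl3* KO. *Trdn-as* KO mice are homozygous for a polyA site placed in the first exon of the antisense RNA *Trdn-as* with Cas9 in embryonic stem cells, and were backcrossed to C57BL/6. *Mettl3* KO mice carry the genotype Mettl3lox/lox:alphaMHC-MerCreMerpos, in which tamoxifen activates a Cre recombinase in cardiomyocytes, so that other cells of the ventricle keep *Mettl3*. For the ChIP controls the labels give only WT, and it is not stated whether they were Cre-negative Mettl3 lox/lox mice treated with tamoxifen or littermates of *Trdn-as* KO mice. Chromatin came from nuclei of 2 pooled hearts, each genotype had 2 RNA Pol II libraries and 1 IgG library, and nothing states that the replicates were separate chromatin preparations, so that p-values measure the spread between these libraries, which may be technical. Since chromatin of whole ventricles was used, more cells of a type and more RNA Pol II per cell cannot be told apart.

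RNA Pol II transcribes all protein-coding genes and many non-coding RNAs. It gathers at promoters, where it often pauses shortly after initiation, and spreads over the gene body where elongation is frequent, so a ChIP-seq signal can be a short, high peak at a start site or a long domain over a whole gene. The antibody used recognises the B1 subunit, the largest subunit of the enzyme. IgG binds no chosen protein, and its reads give the background of open chromatin, mapping and capture. In ventricles, cardiomyocytes devote much of their transcription to the contractile apparatus, calcium handling and oxidative metabolism.

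The RNA Pol II libraries held 7540239 to 12080914 uniquely mapped reads and the IgG libraries 16547284 (WT), 5268859 (*Trdn-as* KO) and 7526834 (*Mettl3* KO). Levels are given as RPM, reads scaled to 1000000 uniquely mapped reads of the library, where reads were estimated from the deposited values, 1 read was worth 0.0828 to 0.133 RPM in RNA Pol II and 0.0604 to 0.19 RPM in IgG libraries, and a count of 0 allows up to 3 reads. Of the targeted genes, the main *Trdn-as* promoter peak (chr10:33129849-33132974 in GRCm39) had 44.7 and 53.9 RPM (WT), 10.1 and 4.59 (*Trdn-as* KO) and 38.2 and 40.7 (*Mettl3* KO), against IgG levels of 2.24, 2.28 and 2.39 RPM. Both *Trdn-as* KO libraries lay below the other 4. This peak also overlaps *Trdn*. The *Mettl3* promoter peak held 15.0 and 18.3 RPM (WT), 14.7 and 7.40 (*Trdn-as* KO) and 18.2 and 19.5 (*Mettl3* KO), with IgG at 1.39, 1.71 and 1.86 RPM. The part that Cre removes is not given in the sources used here and other cells keep the gene, so this peak gives no check of that label. Reads in Y-linked peaks were 205 and 345 in the WT, 184 and 149 in the *Mettl3* KO and 0 and 0 in the *Trdn-as* KO libraries for RNA Pol II, and sex was not considered in the design, so sex and the *Trdn-as* KO genotype cannot be told apart.

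RNA Pol II placed several times more of its reads in the peaks than IgG. The WT libraries had 38.0% and 41.7% of their mapped reads in autosomal peaks, the *Mettl3* KO libraries 38.8% and 41.9%, and the *Trdn-as* KO libraries 34.99% and 18.3%. IgG had 4.85% in WT, 5.09% in *Trdn-as* KO and 5.64% in *Mettl3* KO. Every RNA Pol II library lay above every IgG library. The means were 35.6% ± 8.83 (SD, n = 6) and 5.19% ± 0.405 (SD, n = 3), a difference of 30.4 percentage points or 6.85-fold. The regions were called on the RNA Pol II and CTCF libraries themselves, which favours a higher RNA Pol II share in them, so this difference is a description with no test. Relative to the IgG of its own genotype the enrichment was 7.82- and 8.59-fold in WT, 6.87- and 7.42-fold in *Mettl3* KO, and 6.87- and 3.60-fold in *Trdn-as* KO. *Trdn-as* KO replicate 2 stood apart from the other 5 libraries. Between genotypes the means differed by -13.1 percentage points for *Trdn-as* KO (p = 0.333, the smallest that exact permutation of 2 against 2 libraries allows) and by 0.508 percentage points for *Mettl3* KO (exact permutation p = 0.667). The signal was also concentrated: 4700 peaks (4.74%) held 50% of the RNA Pol II signal of the peaks, while 13542 peaks (13.7%) were needed for 50% of the IgG signal.

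**Figure D1:**
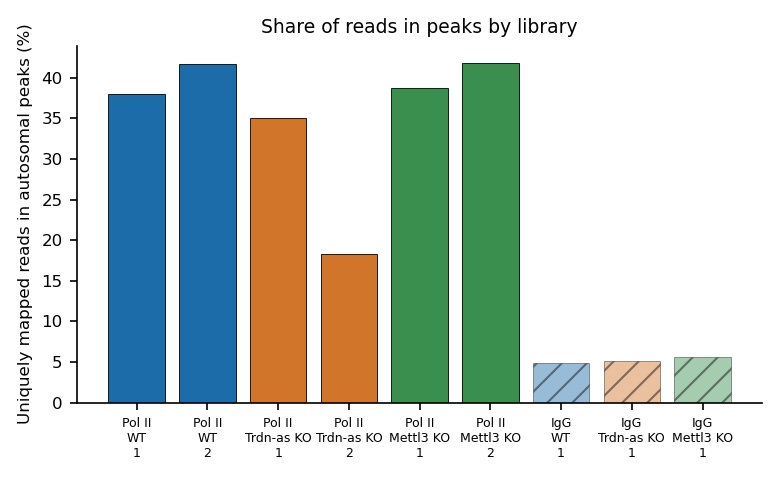
Percentage of uniquely mapped reads that fell in autosomal union peaks, 1 bar per library, for the 6 RNA Pol II libraries (plain) and the 3 IgG libraries (hatched), coloured by genotype. The RNA Pol II libraries reach 18.3% to 41.9% and the IgG libraries 4.85% to 5.64%, and *Trdn-as* KO replicate 2 is the lowest RNA Pol II library.

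*Myh6*, ENSMUSG00002076852, *Myl2*, *Mir133a-2* and *Pln* held the most RNA Pol II in the ventricle. Genes were ranked by the mean RPM above the IgG of the same genotype, summed over the peaks annotated to the gene, and the 25 highest of 20349 genes are described. Since the rank rests on these values, enrichment over IgG at these genes is a description. The lowest of them, *Slc25a4*, had 186 RPM above IgG and the next gene 184 RPM, while the median of all genes was 5.16 RPM. The 25 genes held 2.05% of the RNA Pol II signal of all peaks, 0.725% of the IgG signal and 0.582% of the peak length. Their summed RNA Pol II signal was 14.4 to 26.4 times the IgG.

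Of the thick and thin filament genes, *Myh6*, the myosin heavy chain of the adult mouse ventricle, ranked first in all 3 genotypes. Its peak spanned 32955 nt (chr14:55181949-55214903), the longest autosomal one, and overlapped the neighbouring *Myh7* and *Gm17428*. It had 899.9 and 1044 RPM (WT), 715 and 351 (*Trdn-as* KO) and 857 and 958 (*Mettl3* KO), against 23.8, 30.6 and 39.1 RPM for the IgG of these genotypes. Every RNA Pol II library lay far above IgG, and *Trdn-as* KO replicate 2 was lowest, as at all 25 genes. *Myl2*, the regulatory light chain of ventricular myosin, had 492 and 573 RPM (WT), 466.2 and 251 (*Trdn-as* KO) and 494 and 533 (*Mettl3* KO), with IgG between 15.2 and 25.5 RPM. The *Mettl3* KO libraries lay within the range of WT, and both *Trdn-as* KO libraries below it. *Actc1*, cardiac alpha-actin, had 343 and 377 RPM (WT), 328 and 158 (*Trdn-as* KO) and 289 and 313 (*Mettl3* KO). Its ratio to IgG, 26.4, was the highest among the 25 genes. *Tnnt2*, cardiac troponin T, held 245 ± 75.8 RPM (SD, n = 6) against 13.2 ± 2.18 RPM in IgG (SD, n = 3). *Myh7*, the slow myosin heavy chain beside *Myh6*, had 383 and 435 RPM (WT), 321.5 and 165 (*Trdn-as* KO) and 196 and 217 (*Mettl3* KO). Both *Mettl3* KO libraries lay under both WT libraries, and the gene ranked 6 in WT but 26 in *Mettl3* KO. The difference in its enrichment was -1.27 on the log2 scale (standard error 0.83, limma adjusted p of 1.00 as rounded). It did not pass this test, which takes its spread from the RNA Pol II pairs of all 3 genotypes, although the WT and *Mettl3* KO libraries did not overlap.

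Genes of calcium handling and metabolism were also among the 25. *Pln*, phospholamban, the inhibitor of the calcium pump, had 407 and 455 RPM (WT), 349 and 163 (*Trdn-as* KO) and 328 and 366 (*Mettl3* KO), and *Atp2a2*, the pump itself, 198 ± 56.5 RPM (SD, n = 6). IgG stayed at 16.1 ± 2.29 and 11.1 ± 1.40 RPM (SD, n = 3) at these genes. *Fabp3*, the fatty acid carrier of heart muscle, held 206 ± 62.0 RPM, *Slc25a4*, the mitochondrial ADP/ATP carrier, 197 ± 56.8 RPM, and *Hspb7*, a small heat shock protein of striated muscle, 224 ± 52.0 RPM (SD, n = 6 for each). *Fabp3* ranked 28 in WT and 14 in *Mettl3* KO. *Mir133a-2*, a muscle microRNA gene of 104 nt, lay in a peak of 22980 nt with 392 ± 113 RPM (SD, n = 6). Non-coding loci without a symbol in the table also ranked high: ENSMUSG00002076852, annotated as misc_RNA on chr19:5878218-5902779, had 527 ± 144 RPM, ENSMUSG00002076626, whose peak overlaps *Malat1*, had 295 ± 78.8 RPM, and the lncRNA *Gm49540* had 261 ± 62.6 RPM (SD, n = 6). The gene ENSMUSG00002076852 measures 152 nt and its peak 24562 nt, so the signal cannot be assigned to this gene alone.

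The remaining named genes are in none of the gene lists. *Klf9*, a Krüppel-like transcription factor, held 222 ± 58.9 RPM, *Setd1b*, a histone methyltransferase, 279.5 ± 62.7 RPM, *Tnrc18* 274 ± 67.4 RPM and *Ppp1r10*, a regulatory subunit of protein phosphatase 1, 198 ± 48.7 RPM (SD, n = 6). The highest *Klf9* peak, with a mean of 119 RPM, lay 3539 nt outside the gene. Peaks of many loaded genes also covered a neighbour, which cannot be separated: *Ccdc63* beside *Myl2*, *Cep85l* beside *Pln*, *Gm43360* beside *Atp2a2*, *Gm31251* beside *Myh7*, *Frmd8* beside ENSMUSG00002076852, *Rhof* beside *Setd1b*, *Mrps18b* beside *Ppp1r10*, *Brd2* beside *H2-DMa*, *Thra* beside *Nr1d1*, *Car11* and *Sphk2* beside *Dbp*, *Crip1* beside *Crip2* and *Gm15441* beside *Txnip*. Neighbours were looked up only among genes with an annotated promoter peak, so other genes may lie under these peaks. *Txnip*, thioredoxin-interacting protein, had 315 and 328 RPM in WT, 317 and 357 RPM in *Mettl3* KO and 205 and 104 RPM in *Trdn-as* KO. Its rank was 9 for WT and 25 for *Trdn-as* KO, and the lower value was in *Trdn-as* KO replicate 2. *Dbp*, a transcription factor of the daily clock, had 278 and 317 RPM (WT), 236 and 114 (*Trdn-as* KO) and 129.9 and 137 (*Mettl3* KO), and ranked 14, 14 and 73. *Nr1d1*, a clock repressor, ranked 15, 17 and 23. The times of day at which hearts were taken are not given in the sources used here. *Crip2* and *Tns2* had 205 ± 51.8 and 206 ± 51.1 RPM (SD, n = 6). Counted over the 25 genes, the pair of *Mettl3* KO libraries was beneath the WT pair at 13, *Dbp* and *Myh7* among them, and above it at 2, beside 18.1% and 28.2% of all 20349 genes. The *Trdn-as* KO pair was beneath it at 23 and above it at 0, beside 50.9% and 3.21% of all genes. On the deposited scale the *Mettl3* KO pair was beneath at 13 and above at 9 (11.9% and 45.4% of all genes), and the *Trdn-as* KO pair at 8 and 0 (13.7% and 13%). With the reads in autosomal peaks as library size these numbers were 19 and 3 (20.2% and 30.4%), and 16 and 3 (17.3% and 22.9%). With the mapped reads outside the peaks they were 12 and 2 (15.8% and 23.3%), and 24 and 0 (60.8% and 2.11%). Most genes hold far fewer reads than the 25. Neither these counts nor the part of counting error in them was tested.

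The long domains also gathered the most IgG reads. The 10 autosomal peaks with the highest mean IgG RPM all belonged to the 25 loaded genes, led by *Myh6* with 31.1 RPM and ENSMUSG00002076852 with 27.1 RPM, down to *Crip2* with 14.1 RPM. Per kb, however, their IgG level was 0.917 to 1.29 RPM, beside a median of 0.688 RPM per kb over all peaks, and their RNA Pol II level was 13.9 to 25.7 RPM per kb beside a median of 1.67.

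Ranked by RPM per kb of the highest peak of at least 1000 nt, the genes were others. Of 9612 genes with such a peak, the 15 densest shared 0 genes with the 25 most loaded. Their peaks measured 1034 to 3313 nt (median 1974 nt), those of the loaded genes 4303 to 32955 nt (median 11633 nt). *Polr2a*, which encodes the very subunit that the antibody recognises, was highest with 45.1 RPM per kb of peak (chr11:69648296-69650833). Its peak held 1093 and 1403 reads (WT), 1288 and 722 (*Trdn-as* KO) and 1342 and 1077 (*Mettl3* KO), against 58, 28 and 31 IgG reads. ENSMUSG00000121104 followed with 38.2 RPM per kb, *Taf12*, a subunit of the TFIID and SAGA complexes, with 37.3, *Son*, a splicing cofactor, with 36.8, and *Gtf2a1*, a subunit of TFIIA, with 36.5. *Eapp* (36.0), *Chrac1* (35.9), *Poldip3* (35.7), the RNA helicase gene *Ddx5* (35.2), *H3f3b*, which encodes histone H3.3 (33.7), and the snoRNA host *Snhg8* (33.5) stood close together, and their order was not tested. *Spg11* had 35.8, *Urgcp* 34.8, *Gpr19* 34.6 and *B330016D10Rik* 34.5 RPM per kb. The *Taf12* peak was centred 4510 nt from the TSS and lay 3524 nt outside the gene. Peaks of *Polr2a*, *Son*, *Ddx5* and *Snhg8* also covered *Slc35g3*, *Gart*, *Cep95* and *Snora24*, in this order. *Myh6* had 24.4 RPM per kb of its peak, *Myl2* 25.7, *Actc1* 22.1 and *Myh7* 13.9, with a median of 12.1 over all 9612 genes.

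The CG content of the promoters is given for both sets as a description. RefSeq promoters of GRCm38.p6, from 250 nt before to 50 nt after the first listed start, were available for 18 of the 25 loaded and 12 of the 15 dense genes. CG dinucleotides, the sites of DNA methylation that cluster in CpG island promoters, numbered 17 to 43 (median 26) in the dense and 1 to 29 (median 13.5) in the loaded genes, beside a median of 7 and quartiles of 3 and 21 over 27025 promoters. Of all promoters 31.9% held at least 17 CG pairs, and of the 18 loaded genes 9 did. Both sets had members with many CG pairs. The promoters below, 3 of heart muscle genes among the loaded and 3 of ubiquitous genes among the dense, were picked after their values were seen to show both ends of this range, and are written 5′ to 3′ with CG pairs in capitals. The dense peak of *Taf12* lies 3524 nt outside the gene, so the promoter shown for it is not the sequence under that peak.
*Myh6* (chr14:54966558-54966857, minus strand): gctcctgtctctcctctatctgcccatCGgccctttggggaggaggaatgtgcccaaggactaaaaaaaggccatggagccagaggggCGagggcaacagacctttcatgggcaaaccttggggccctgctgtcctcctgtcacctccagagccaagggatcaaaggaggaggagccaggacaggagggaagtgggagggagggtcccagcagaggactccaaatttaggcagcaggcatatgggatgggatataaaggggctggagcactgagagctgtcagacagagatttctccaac
*Actc1* (chr2:114052826-114053125, minus strand): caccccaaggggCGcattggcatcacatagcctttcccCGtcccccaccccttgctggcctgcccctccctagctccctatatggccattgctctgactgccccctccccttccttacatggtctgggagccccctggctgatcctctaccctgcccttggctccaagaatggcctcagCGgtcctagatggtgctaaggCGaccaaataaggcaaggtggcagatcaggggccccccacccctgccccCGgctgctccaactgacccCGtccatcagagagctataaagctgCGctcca
*Pln* (chr10:53337436-53337735, plus strand): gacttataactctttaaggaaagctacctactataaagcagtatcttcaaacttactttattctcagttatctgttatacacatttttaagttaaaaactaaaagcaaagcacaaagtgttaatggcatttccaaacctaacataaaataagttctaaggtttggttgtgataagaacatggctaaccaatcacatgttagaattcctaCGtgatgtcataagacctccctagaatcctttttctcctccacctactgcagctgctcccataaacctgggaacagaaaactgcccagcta
*Polr2a* (chr11:69758584-69758883, minus strand): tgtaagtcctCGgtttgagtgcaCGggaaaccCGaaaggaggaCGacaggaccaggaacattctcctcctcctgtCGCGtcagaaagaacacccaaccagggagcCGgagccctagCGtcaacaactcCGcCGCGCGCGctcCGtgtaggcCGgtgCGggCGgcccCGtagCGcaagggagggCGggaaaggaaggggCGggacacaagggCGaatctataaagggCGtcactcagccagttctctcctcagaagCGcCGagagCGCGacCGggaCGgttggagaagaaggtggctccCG
*Taf12* (chr4:132274125-132274424, plus strand): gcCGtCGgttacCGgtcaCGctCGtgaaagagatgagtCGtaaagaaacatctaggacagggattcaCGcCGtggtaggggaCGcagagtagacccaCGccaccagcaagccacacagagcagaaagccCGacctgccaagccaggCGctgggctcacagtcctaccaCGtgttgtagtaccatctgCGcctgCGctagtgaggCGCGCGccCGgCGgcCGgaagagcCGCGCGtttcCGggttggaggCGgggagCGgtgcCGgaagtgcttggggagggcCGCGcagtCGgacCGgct
*Son* (chr16:91647574-91647873, plus strand): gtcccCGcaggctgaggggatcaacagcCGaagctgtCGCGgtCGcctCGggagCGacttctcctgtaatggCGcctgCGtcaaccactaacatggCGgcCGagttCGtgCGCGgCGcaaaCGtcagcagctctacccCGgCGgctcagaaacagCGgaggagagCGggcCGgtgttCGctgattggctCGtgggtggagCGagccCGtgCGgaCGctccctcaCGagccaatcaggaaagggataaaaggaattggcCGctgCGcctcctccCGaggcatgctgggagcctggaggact
The *Myh6*, *Actc1* and *Pln* promoters hold 2, 7 and 1 CG pairs, and those of *Polr2a*, *Taf12* and *Son* 30, 32 and 31. The letters TATAAA, searched on both strands, occurred in 14.2% of all promoters, in 5 of the 18 loaded and in 3 of the 12 dense genes. From 35 to 20 nt before the listed start on the sense strand they began in 2.05% of all promoters, in 0 of the 18 loaded and in 3 of the 12 dense genes. In the *Myh6* and *Actc1* sequences above, TATAAA stands on the sense strand after the listed start, outside this window. The window count thus depends on the listed start and cannot tell whether a promoter has a TATA box. These windows are far shorter than the peaks of the loaded genes, and the RefSeq build differs from that of the peaks, so they are shown as sequence context only.

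RNA Pol II was then compared with IgG peak by peak. The peaks had been called partly on these RNA Pol II libraries and passed the filter largely through RNA Pol II reads, so the number above IgG describes this set of regions and not the genome. Peaks with at least 20 reads over the 9 libraries, 73908 in all, were tested with limma on log2(RPM + 0.5) with genotype in the model. At a Benjamini-Hochberg adjusted p below 0.05, 42008 peaks (56.8%) were higher in RNA Pol II and 421 (0.57%) lower, with a median log2 ratio of 0.79. Without the filter 40701 of 99188 peaks were higher and 1200 lower. The counts also depend on the scale. On the deposited DESeq2 scale 21339 peaks were higher and 8219 lower (median 0.22), with the reads in autosomal peaks as library size 9601 and 24917 (median -0.52), and with the mapped reads outside the union peaks as library size 49439 and 48 (median 0.95). All 9601 of the peaks called higher on the strictest of these scales were also among the 42008. A pseudocount of 0.5 RPM understates the ratio of peaks with few reads.

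Enrichment was strongest at protein-coding promoters and in long peaks. Of 22520 tested protein-coding promoter peaks 17318 (76.9%) were called higher, with a median log2 ratio of 1.74, against 55.0% of other promoter peaks (median 0.75) and 46.6% of peaks without a promoter (median 0.60). Protein-coding promoter peaks held 69.5% of the RNA Pol II signal and 45.2% of the IgG signal of all peaks. Their median level was 3.76 RPM per kb against 0.814 in IgG, while peaks without a promoter had 1.15 against 0.647 RPM per kb. For the promoter peak nearest to the TSS of each protein-coding gene, 10949 of 12225 tested (89.6%) were called higher and 13 lower, with a median of 2.93. By length, all 205 peaks of at least 5000 nt were called higher, 95.9% of those from 2000 nt to under 5000 nt and 44.4% of those under 300 nt.

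Within each genotype the contrast set 2 RNA Pol II libraries against 1 IgG library, which was assumed to vary like the RNA Pol II pairs. In WT 31794 peaks (43%) were higher and 36 (0.0487%) lower, with a median log2 ratio of 1.00. In *Trdn-as* KO 20989 (28.4%) were higher and 240 (0.325%) lower (median 0.71), and in *Mettl3* KO 27537 (37.3%) were higher and 292 (0.395%) lower (median 0.85). The order of the genotypes turned with the scale: on the deposited scale *Trdn-as* KO had 22773 higher and 6071 lower peaks, *Mettl3* KO 20397 and 7659, and WT 17461 and 7451 (medians 0.46, 0.26 and 0.12), and with the reads in autosomal peaks as library size 17324, 12898 and 10754 were higher and 26913, 30005 and 28652 lower (medians -0.39, -0.66 and -0.68). Fitted with the 3 libraries of the genotype alone, *Trdn-as* KO had 0 peaks called in either direction, WT 35317 higher and *Mettl3* KO 30391 higher. With *Trdn-as* KO replicate 2 left out, 30074 peaks were higher in *Trdn-as* KO. Without WT replicate 2, 20980 were higher in WT. The 16939 peaks called in all 3 genotypes made up 53.3% of the WT, 80.7% of the *Trdn-as* KO and 61.5% of the *Mettl3* KO calls. At the main peaks of the 25 loaded genes the log2 ratio to IgG was 4.18 to 5.41 in WT, 3.07 to 4.31 in *Trdn-as* KO and 3.15 to 4.54 in *Mettl3* KO.

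Between genotypes, enrichment over IgG differed from WT at 0 of 73908 peaks in *Trdn-as* KO by limma (0%, 4114 peaks at an unadjusted p under 0.05) and at 2 peaks in *Mettl3* KO (0.00271%, both higher, 2141 at an unadjusted p under 0.05). On the deposited scale 6663 peaks differed in *Trdn-as* KO and 3162 in *Mettl3* KO, and with the reads in autosomal peaks as library size 22263 and 13824, so these counts hold for the RPM scale. The *Trdn-as* KO count rests on both of its libraries, since leaving out replicate 1 gave 96 higher and 15000 lower peaks and leaving out replicate 2 gave 423 higher and 1807 lower. The *Mettl3* KO count moved with the same libraries, to 467 higher and 1476 lower peaks without *Trdn-as* KO replicate 1 and 465 and 1479 without replicate 2, and to 0 without either WT library for RNA Pol II. The contrasts share the WT libraries. None of the 25 loaded genes was called in either of them, and at their main peaks the difference from WT lay between -1.39 and -0.10 on the log2 scale for *Trdn-as* KO, and between -1.27 and -0.01 for *Mettl3* KO, beside medians over all tested peaks of -0.37 and -0.15. These medians turned positive on the deposited scale (0.23 and 0.13) and with the reads in autosomal peaks as library size (0.18 and 0.0054), so the direction of the general shift depends on the scale.

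Both peaks called for *Mettl3* KO lay inside *Esr1*, the gene of oestrogen receptor alpha. The first (chr10:4806875-4807242) had 215 and 188 RNA Pol II reads in *Mettl3* KO, 0 in each WT library, and 3 and 1 for *Trdn-as* KO, with 9, 7 and 0 reads in the IgG of *Mettl3* KO, WT and *Trdn-as* KO. The *Mettl3* KO libraries stood apart from all others, and the difference in enrichment was 4.63 (standard error 0.76, limma adjusted p = 8.5e-05). The second (chr10:4951147-4951473) had 138 and 107 reads in *Mettl3* KO, 0 in each WT library, and 0 and 1 for *Trdn-as* KO, a difference of 3.72 (standard error 0.75, adjusted p = 0.024). A further 3 peaks inside *Esr1*, with adjusted p-values of 0.071, 0.28 and 0.37, had 63 to 103 reads in the *Mettl3* KO and 0 to 2 in the other RNA Pol II libraries. As background, the MerCreMer transgene carries ligand-binding domain sequence of the mouse oestrogen receptor, and its part in these peaks was not tested. In the opposite direction no peak passed, with the smallest adjusted p at *Gm29137* (difference -3.49, adjusted p = 0.071). *Ces1d*, a carboxylesterase gene, had 115 and 194 reads (WT), 114 and 28 (*Trdn-as* KO) and 19 and 14 (*Mettl3* KO) at its peak of 1077 nt (-3.27, adjusted p = 0.37). For *Trdn-as* KO, higher peaks that did not pass were chr13:100730614-100731144, with 67 and 25 *Trdn-as* KO reads against 3 and 2 WT reads (difference 3.03, adjusted p = 0.66), and the promoter of *Eif3j2*, with 62 and 27 against 0 and 1 reads (2.93, adjusted p = 0.66). The smallest adjusted p among its lower peaks was at *Gm11942* (38 and 49 WT reads, 0 and 1 *Trdn-as* KO reads, 41 and 31 *Mettl3* KO reads, difference -3.50, adjusted p = 0.32), and a peak inside *Trdn* (chr10:33076772-33078096) had 53 and 104 reads (WT), 8 and 5 (*Trdn-as* KO) and 55 and 30 (*Mettl3* KO) (-3.29, adjusted p = 0.66). At the *Trdn-as* promoter the log2 ratio to IgG was 4.18 in WT, 1.40 in *Trdn-as* KO and 3.79 in *Mettl3* KO, a difference of -2.78 in *Trdn-as* KO (adjusted p = 0.87). At *Gm11942*, inside *Trdn* and at the *Trdn-as* promoter the *Trdn-as* KO and WT libraries did not overlap, but none of these differences passed.

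Gene lists were read at the promoter peak whose centre lay nearest to the TSS. All heart muscle lists had medians above the median log2 ratio of 0.79 over all tested peaks and of 1.74 over protein-coding promoter peaks, and also above the matched background, the nearest promoter peak of every protein-coding gene, with 89.6% called and a median of 2.93. The shares called are read against that 89.6%, and those of the sarcomere and of the creatine, glycogen and oxygen list did not exceed it. Of the sarcomere genes 16 of 19 tested were called higher and 0 lower (median 3.55), with *Actc1* (4.63) and *Myh6* (4.62) highest. *Tnni3* (0.20) and *Mybpc3* (0.30), which encode cardiac troponin I and myosin-binding protein C, were not called. Distance is measured from the peak centre, so a short flanking peak can stand for a gene whose long peak covers the TSS. With the peak whose edge lay nearest, 17 of 19 were called, *Mybpc3* reached 3.62, *Myl2* 4.70 and *Tnnt2* 4.15, and the median was 4.08. *Tnni3* stayed at 0.20, at a peak of 152 nt whose centre lay 1528 nt from the TSS. Of calcium handling genes 11 of 11 were called (median 3.43), from *Pln* at 0.65 (4.37 with the nearest edge) and *Hrc* at 1.25 to *Jph2*, which anchors the junctional membrane, at 4.01 and *Atp2a2* at 4.09. All 12 tested cardiac transcription factors were called (median 3.29), with *Hand2* (3.75) and *Myocd* (3.68) highest and *Nkx2-5* (1.21) low with a peak of 240 nt. *Tbx20* was at 0.99 and at 3.84 with the nearest edge. Natriuretic peptide and stress genes were called at 5 of 5 (median 3.19), from *Nppa* (1.35) and *Acta1* (1.62) to *Nppb* (4.27).

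Fatty acid genes were called at 14 of 14 tested (median 3.32), with *Acadl* (4.01) and *Hadha* (3.76) highest, while *Cd36*, the fatty acid transporter, had 2.63 and *Hadhb*, the beta subunit of the mitochondrial trifunctional protein, the lowest ratio, 1.14. Of the creatine, glycogen and oxygen genes 7 of 10 were called (median 3.52), led by *Eno3* (3.86) and *Ckmt2* (3.84). *Pfkm*, muscle phosphofructokinase, was not called (0.47), nor was *Ckm*, muscle creatine kinase (0.10), and its peak of 1000 nt was centred 905 nt from the TSS.

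Markers of other cell types of the ventricle were called at shares near the 89.6% of all nearest promoter peaks, and the smooth muscle and macrophage medians lay below the 2.93 of that background, with the fibroblast median close to it. Endothelial genes were called at 9 of 10 tested (median 3.27), with *Flt1* (4.02) and *Cldn5* (3.86) highest and *Egfl7* (0.56, adjusted p = 0.081) not called. Fibroblast genes were called at 12 of 12 (median 2.92), from *Postn* (2.05) and *Dpt* (2.22) to *Tcf21* (3.70). Smooth muscle and pericyte genes were called at 9 of 9 (median 2.42), from *Cnn1* (1.30) and *Lmod1* (1.33) to *Abcc9* (3.09) and *Pdgfrb* (4.04), and macrophage and leukocyte genes at 8 of 9 (median 1.71), with *Cd68* at 3.21 and *Cx3cr1* at 0.39. The median level was 5.46 RPM per kb for macrophage genes, 6.08 for smooth muscle, 8.90 for fibroblast and 11.5 for endothelial genes, against 10.2 for the sarcomere, 23.5 for housekeeping genes and 10.1 over the nearest promoter peaks of all protein-coding genes. The sarcomere level was thus near that background, and it rests on peaks with the nearest centre, short flanking ones among them.

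Hepatocyte, germ line and neuronal genes had few promoter peaks or values near IgG, and skeletal muscle genes were in between. Of 12 hepatocyte genes 2 had a promoter peak and 0 were tested, and *Alb* and *Ttr* had none. Of 12 germ line genes 3 had a peak, 2 were tested and 1 was called, *Dazl* (1.43), while *Stra8* was at -0.11. Of 12 neuronal genes 7 had a peak and 4 were tested, with *Tubb3* (1.13) and *Stmn2* (0.86) called and *Rbfox3* at -0.43. Of 12 skeletal muscle genes 8 had a peak and 5 were tested, with a median of 1.93. *Mybpc2* (2.22) and *Casq1* (2.12) were among the 4 called, and *Ryr1*, the skeletal calcium release channel, was at 0.03. With the reads in autosomal peaks as library size the medians of the skeletal muscle, neuronal and germ line lists turned negative (-0.54, -0.90 and -1.28), on the deposited scale those of the neuronal and germ line lists (-0.10 and -0.24), and all other lists stayed positive on each of the 3 other scales. Calls were lost in most lists. With the reads in autosomal peaks as library size the calls fell from 16 to 12 for the sarcomere, 11 to 8 for calcium handling, 12 to 8 for cardiac transcription factors, 14 to 11 for fatty acid genes, 12 to 7 for fibroblast, 9 to 5 for smooth muscle, 8 to 2 for macrophage, 11 to 8 for immediate early, 4 to 0 for skeletal muscle, 2 to 0 for neuronal and 1 to 0 for germ line genes and *Malat1*. The endothelial, stress gene, and snRNA and histone lists each lost 1 call, and the housekeeping (12) and creatine (7) lists lost none. On the deposited scale 13 sarcomere, 9 calcium handling, 7 macrophage, 3 skeletal muscle and 0 neuronal, germ line or lncRNA genes were called, and each remaining list lost at most 1 call. Housekeeping genes were called at 12 of 12 (median 3.82), from *Eef1a1* (2.82) to *Ubb* (4.38) and *Polr2a* (4.56), immediate early and heat shock genes at 11 of 11 (median 3.71), from *Hsp90aa1* (0.81) to *Hspa8* (4.24), and snRNA and histone genes at 5 of 5 of 15 members (median 4.21), from *H3c2* (1.31) to *H4c4* (4.31). Of the listed lncRNAs 1 was tested, *Malat1*, at a peak of 284 nt (1.14), while the long peak that overlaps *Malat1* and is annotated to ENSMUSG00002076626 had 4.25. Only peaks annotated to a listed gene itself were counted, so a listed lncRNA under a peak annotated to another gene is missed. For the Pol III gene list 0 members matched a promoter symbol. No list member was called lower than IgG on the RPM scale. On the deposited scale 1 creatine, 1 neuronal and 1 germ line gene were, and with the reads in autosomal peaks as library size 2 sarcomere, 3 creatine, 3 skeletal muscle, 2 neuronal, 2 germ line and 1 immediate early gene. None passed the test of a difference in enrichment between genotypes.

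Many peaks of the table were not above background. At 21363 autosomal peaks (21.5%) the mean RNA Pol II RPM was at or below the mean IgG RPM. The share was 8.67% among protein-coding promoter peaks, 21.8% among other promoter peaks and 26.9% among peaks without a promoter. Within genotypes it was 22.1% in WT, 24.7% in *Trdn-as* KO and 25.5% in *Mettl3* KO. These peaks were thinly covered, with a median of 9 reads over the 6 RNA Pol II and 7 over the 3 IgG libraries, so that the counting error of each is large. Every RNA Pol II library lay at or below the IgG of its genotype at 3554 peaks (3.58%). The lower 95% Poisson bound of the ratio did not exceed 1 at 48732 peaks (49.1%). With the mapped reads outside the peaks as library size, 12104 peaks (12.2%) were not above IgG, and with the deposited values 52739. With the reads in autosomal peaks as library size the number was 76960 (77.6%). No peak of at least 5000 nt was among the 21363, while 25.2% of those under 300 nt were.

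CTCF calls helped to choose the peaks, so a region without RNA Pol II calls can be in the table through CTCF, and the following values are a description. CTCF had a median deposited value of 12.3 at peaks not above IgG and 11.3 at the others. The relation turned with the class of the peak. From the quartile with the least CTCF to that with the most, 10.1%, 14.1%, 9.59% and 4.98% of protein-coding promoter peaks were not above IgG. Among peaks without a promoter the shares were 21.95%, 25.6%, 27.1% and 34.9%. Median peak length rose from 177 nt in the lowest to 1099 nt in the highest CTCF quartile, and its part in this was not tested. Among peaks not above IgG the highest CTCF value, 274, was on chr15:97561068-97563739, where RNA Pol II had 2.13 ± 0.782 RPM (SD, n = 6) and IgG 2.15 RPM. Other such peaks carried the promoters of *Gm3919* and *Nkx2-2os* or lay inside *Kazn*. At promoters of protein-coding genes not above IgG, *Plin1*, which encodes a lipid droplet protein of adipocytes, had 11, 10, 8, 11, 8 and 7 RNA Pol II reads in the order WT, *Trdn-as* KO and *Mettl3* KO and 34, 5 and 18 IgG reads. *Tg*, thyroglobulin, had 10, 23, 13, 5, 7 and 3 RNA Pol II and 24, 15 and 13 IgG reads and was the one of these called lower (log2 ratio -0.84, limma adjusted p = 0.017). *Cdkn1c* (-0.08), *Tpm3* (-0.12) and *Dram1* (-0.08) did not pass the test. These genes may have other promoter peaks.

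**Figure D2:**
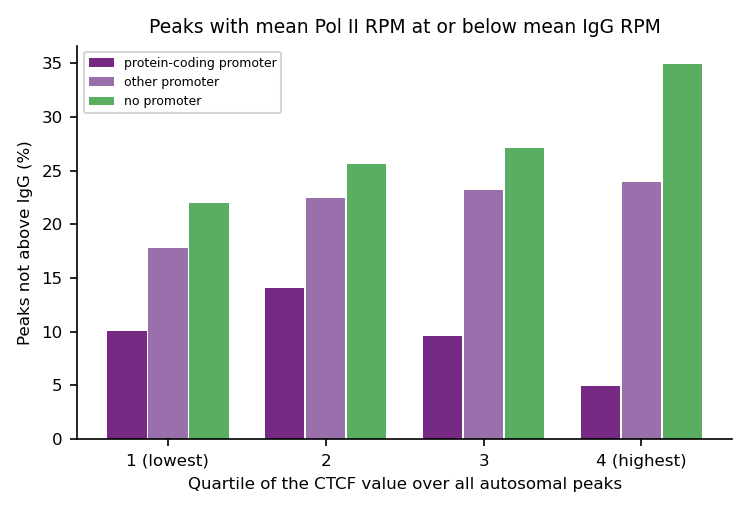
Percentage of autosomal peaks whose mean RNA Pol II RPM was at or below the mean IgG RPM, by quartile of the CTCF value, for protein-coding promoter peaks, other promoter peaks and peaks without a promoter. The share among protein-coding promoter peaks is lowest in the highest quartile (4.98%), and among peaks without a promoter highest there (34.9%).

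The 421 peaks called lower than IgG were mostly distal. Of them 346 (82.2%) had no promoter annotation, against 57.8% of the tested peaks, and 22 lay at protein-coding promoters. Their median CTCF value was 51.8 beside 17.5 for all tested peaks, and their median length 722 nt beside 574 nt. The smallest adjusted p was at chr9:90581056-90581469, with 0, 0, 0, 2, 1 and 0 RNA Pol II reads and 9, 8 and 5 IgG reads (log2 ratio -1.31, adjusted p = 8.1e-06). A peak of 95 nt on chr10:47680543-47680637 was next, but 55 of its 64 IgG reads were in the WT library. Peaks on chr6:23179930-23180722, inside *Ntm* on chr9:29561923-29562380, and on chr1:71544796-71545669 had 0 to 3 RNA Pol II reads in each library and 2 to 12 IgG reads. With the mapped reads outside the peaks as library size, 48 peaks were called lower. The share of reads outside peaks was lower in every RNA Pol II library than in IgG, and its part in the calls was not tested.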

How the data were processed

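ChIP-seq reads (72 nt, single-end) were trimmed by the authors with Trimmomatic 0.39, aligned to GRCm39 (mm39, Ensembl 109) with STAR 2.7.11b, cleared of duplicates (Picard 3.1.1) and of spliced, multi-mapping, ribosomal and mitochondrial reads, and counted with featureCounts in MACS peaks merged over all libraries. The authors deposited this signal divided by DESeq2 1.36.0 size factors and rounded to whole numbers. The value of 1 read per library was recovered from the spacing of the values, 0.945 to 2.04 for RNA Pol II and 2.55 to 6.56 for IgG, and checked on simulated data. Because the values were rounded, the reads are estimates and no count model was run. Reads divided by the uniquely mapped reads of the study gave RPM. limma 3.58.1 (R 4.3.3) was run on log2(RPM + 0.5) with a variance trend, over peaks with at least 20 reads, with target and genotype (5 residual degrees of freedom) or 6 groups (3) in the model. In reads simulated at IgG levels, the contrast over all genotypes recovered 12.05% of peaks raised 2-fold and 70.4% of those raised 4-fold. At 1 RPM or more it recovered 38.5% and 100%, with 0 and 11 false calls in all. The contrasts between genotypes were not simulated. Python 3.11.15 and matplotlib 3.10.9 did the rest.

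Genes named are the 25 with the most RPM above IgG, the 15 densest, the 10 peaks with the highest IgG, up to 5 peaks per direction and contrast, 5 promoter and 5 CTCF-rich peaks not above IgG, and the highest and lowest member of each list. Of the 25, 1 is not reported here. Members and lists were chosen with earlier results of these data known. The targeted genes and the *Trdn* peak were shown beside them. The mapped reads outside the peaks as library size and the peak with the nearest edge were chosen after seeing the data. Other alternatives were other pseudocounts, no filter, no trend, a replicate block, stricter thresholds and leaving out each library. Intervals and floors cover counting error only, and reads carry no molecular identifiers. The 3 input libraries were not analysed here, and the CTCF libraries served as a mean value per peak. GRCm38 promoters came from RefSeq, and gene names missing from the deposited table came from GENCODE where it had one.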

Additional observations from a re-analysis of the deposited data

Results flagged for a closer look

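Among the 6 RNA Pol II libraries, *Trdn-as* KO replicate 2 had the lowest share of mapped reads in autosomal peaks, 18.3%. Its gap to the next library was 0.708 of the range of all 6, above the critical value of 0.625 of Dixon's test, which flags about 1 group in 20 by chance. The difference in enrichment between *Mettl3* KO and WT was 4.63 on the log2 scale at chr10:4806875-4807242 and 3.72 at chr10:4951147-4951473, the 2 peaks at which the test of the difference itself passed. Both are inside *Esr1*, and leaving out WT replicate 1 or 2 for RNA Pol II removed both calls.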

How the results depend on the processing

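On the deposited scale the calls became 21339 higher and 8219 lower over all genotypes, 17461 higher in WT, 6663 and 3162 for the differences of *Trdn-as* KO and *Mettl3* KO from WT, and 52739 peaks not above IgG. With the reads in autosomal peaks as library size they were 9601, 24917, 10754, 22263, 13824 and 76960, and 12898 higher in *Mettl3* KO. With the mapped reads outside the peaks they were 48 lower, 1 difference for *Mettl3* KO and 12104 not above IgG. Peaks lower than IgG numbered 1200 without the filter, 100 at an adjusted p below 0.01 and 18 with at least a 2-fold change. The *Trdn-as* KO contrast to IgG called 0 peaks with its own 3 libraries alone, a fit with fewer samples. A pseudocount of 0.1 RPM gave 17 differences for *Trdn-as* KO and 11 for *Mettl3* KO. For *Mettl3* KO a pseudocount of 2 RPM gave 5, no filter 0, no variance trend 4, an adjusted p below 0.01 gave 1 and the replicate block 1. Deviations of same-numbered libraries correlated at -0.038, 0.0027 and -0.046 across peaks, so the numbers do not pair them, and with the replicate block 39778 peaks were higher and 319 lower than IgG. Not above IgG in every library were 3554 peaks, and by the Poisson bound 48732. By density 0 of the 25 loaded genes stayed. Why these counts moved was not tested.

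Leaving out 1 library at a time gave 251 to 422 lower peaks (lowest without the *Mettl3* KO IgG), 20980 to 35177 higher in WT (lowest without WT replicate 2), 0 to 15096 differences for *Trdn-as* KO and 0 to 1944 for *Mettl3* KO, and a share difference of 29.2 to 33.9 percentage points. Of 134 named peaks, the log2 ratio turned negative with the reads in autosomal peaks as library size at *Casq1* (-0.19), *Hsp90aa1* (-1.47), *H3c2* (-0.47), *Pfkm* (-1.79), *Dazl* (-0.82), *Gad1* (-1.53), *Mybpc3* (-1.003), *Stmn2* (-0.17), *Nppa* (-0.0467), *Hadhb* (-0.49), *Ckm* (-2.16), *Ryr1* (-1.41), *Hrc* (-0.64), *Tnni2* (-1.24), *Tubb3* (-0.28) and *Cnn1* (-0.0145), and on the deposited scale at *Hsp90aa1* (-0.32), *Ckm* (-1.03) and *Tnni2* (-0.17). Depth limits short peaks most, since 1 IgG read is worth up to 0.19 RPM.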
